A study of Homo sapiens with 6 samples.

Results

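The genes described here are 10 genes known as direct targets of KMT2A-AFF1, the fusion oncoprotein carried by SEM cells. They are *MEIS1*, *PBX3*, *RUNX1*, *RUNX2*, *FLT3*, *PROM1*, *LMO2*, *MEF2C*, *JMJD1C* and *CDK6*. Each was taken by its symbol from the deposited gene tables, where 10 rows of 57820 matched, 1 per gene. The list was drawn up from the biology of the fusion, but with earlier results of these data known. RNA levels cannot check the binding of the fusion to these genes. SEM is an established human cell line of B-cell acute lymphoblastic leukemia (B-ALL). Total RNA of 3 CTCF-WT and 3 CTCF-dRBR libraries was sequenced after depletion of ribosomal RNA. Cells of both groups carried a miniAID-mClover3 tag on the endogenous CTCF, which an auxin analog, 5-Ph-IAA, causes to be degraded through OsTIR1. HA-tagged CTCF was then induced with doxycycline, either wild type or lacking the RNA-binding region (RBR). The genotype label of CTCF-dRBR names the transgene TRE3G-HA-CTCF-dRBR, whereas that of CTCF-WT names no transgene, and its libraries were grouped by their titles. All 6 titles carry the mark C27, and no label says whether replicates came from separate cultures. The p-values therefore measure the spread between these libraries, which may be technical.

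KMT2A is a histone methyltransferase that keeps developmental genes active. When its first part is joined to AFF1, a protein of the super elongation complex, the product stays on KMT2A target genes, recruits elongation factors and DOT1L, and sustains their transcription. *MEIS1* and *PBX3* are homeodomain cofactors of the HOXA proteins in this program. *RUNX1*, *RUNX2*, *LMO2* and *MEF2C* are transcription regulators of blood and bone development, *FLT3* and *PROM1* encode surface proteins of immature cells, *JMJD1C* encodes a chromatin protein of the demethylase family, and *CDK6* drives the G1 phase of the cell cycle. CTCF, the protein that was altered, is a zinc-finger factor that anchors chromatin loops, and the RBR is the stretch through which it contacts RNA.

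In the comparison of CTCF-dRBR with CTCF-WT the 10 targets all had a fold change above 1, but none of the differences passed the test. The log2 fold changes lay between 0.04 (*RUNX1*) and 0.52 (*JMJD1C*), with a median of 0.28 against −0.0076 over the 14044 genes tested. At an adjusted p under 0.05 by limma-voom 0 of the 10 targets were called, and the share called among all genes was 0%. At an unadjusted p under 0.05 the targets gave 5 higher and 0 lower, where 12.6% of all genes were higher and 12.8% lower. By edgeR 5 targets were higher, where 13.6% of all genes were. At an adjusted p under 0.05, DESeq2 called 1 target (*PROM1*, higher), where it called 11.5% of all genes (756 higher and 863 lower). limma's voomWithQualityWeights called 7 targets, all higher, and 68.2% of all genes (4561 higher and 5022 lower). It gave the highest weights to replicate 2 of CTCF-WT (5.65) and of CTCF-dRBR (6.19), and the lowest to CTCF-dRBR replicate 1 (0.097). So 1 library of each group carried most of the weight in this fit. For 6 targets every CTCF-dRBR library lay above every CTCF-WT library in CPM (counts relative to library size, scaled by TMM), and for 0 every one lay below. The same held for 20.0% of all genes upward and 17.5% downward. Of the 10 targets 8 had exons of a lower GC content than the median of all genes tested, and fold changes in these libraries moved with GC content, as given further on.

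The libraries differed in ways that touch every value below. Total counts were 51732177 to 53166735 in CTCF-WT, and 30034505, 48912209 and 50457168 in CTCF-dRBR. CTCF-dRBR replicate 1 was the shallowest and stood apart from the other 5. *CTCF* itself was counted at 209.9, 211 and 249 CPM in CTCF-WT, against 273, 264 and 252 CPM in CTCF-dRBR (log2 fold change 0.24, adjusted p = 0.20), with transcripts of the endogenous gene and the transgene not separated, so these values do not check the labels. Of 8 B-lineage markers 7 passed the filter on low counts, and their summed level was 634 to 751 protein-coding TPM (a measure per length, defined with the levels below) in CTCF-WT and 427 to 879 in CTCF-dRBR, while the T-lineage, erythroid, fibroblast and epithelial markers (0 of 13 past the filter) stayed at or below 0.38 TPM per gene. Of the myeloid markers only *LYZ* and of the NK markers only *NKG7* passed the filter, with sums over the lists of 6.87 to 8.40 and 40.6 to 57.5 protein-coding TPM. Their part in the results was not tested. In such bulk RNA, fewer cells that express a gene and less RNA per cell cannot be told apart.

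The genes lie on 10 chromosomes, and the windows just upstream of their starts differ in base composition. The RefSeq promoter table (GRCh38.p14) held 22 starts for 9 of the 10 genes, each matched exactly and at a single place to GRCh37. *LMO2* had no entry. RUNX proteins read the letters TGTGGT. Because *RUNX1* and *RUNX2* are themselves targets, the 250 bases upstream of each start were searched for these letters on both strands. They occurred upstream of 3 of the 22 starts, for *MEIS1*, *RUNX2* and *JMJD1C*, and of 10.98% of all 35116 starts in the table. The match in *JMJD1C* overlaps an E-box (CACGTG). These windows are printed 5′ to 3′ on the strand of the gene, without bases that the annotation assigns to an exon, and the capitals mark TGTGGT or its reverse complement ACCACA.

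*MEIS1*, chr2:66662007-66662256, + strand: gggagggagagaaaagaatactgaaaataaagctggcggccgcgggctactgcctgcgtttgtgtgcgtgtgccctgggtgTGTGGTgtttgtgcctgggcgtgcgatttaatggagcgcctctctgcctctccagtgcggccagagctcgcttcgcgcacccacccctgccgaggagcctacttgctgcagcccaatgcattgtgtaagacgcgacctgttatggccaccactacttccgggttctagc
*RUNX2*, chr6:45295817-45295893, + strand: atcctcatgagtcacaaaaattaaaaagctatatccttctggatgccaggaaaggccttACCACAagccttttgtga
*JMJD1C*, chr10:65281651-65281900, − strand: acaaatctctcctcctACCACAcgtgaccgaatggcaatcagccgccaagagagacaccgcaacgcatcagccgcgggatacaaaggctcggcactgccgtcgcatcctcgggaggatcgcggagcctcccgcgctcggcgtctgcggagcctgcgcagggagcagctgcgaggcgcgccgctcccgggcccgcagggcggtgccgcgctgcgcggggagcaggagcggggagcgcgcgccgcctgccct

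The *RUNX2* window, at the distal start of the gene, had 41.6% GC and 0 CpG dinucleotides over its full 250 bases, against 72.0% and 35 for *JMJD1C* and 59.6% and 16 for *MEIS1*. Of the *RUNX2* bases 173 are annotated as exon, against 0 in the windows of *JMJD1C* and *MEIS1*. The full *RUNX2* window held 2 matches, and the printed bases show only the first. Of the 3 genes with the RUNX letters, *RUNX2* did not differ between the groups beyond the spread of its libraries. The CPM of *MEIS1* and *JMJD1C* did not overlap between the groups, as for 6 of all 10 targets and 20.0% of all genes upward. A link between the letters and the differences was not tested. The letters TGACAG, read by MEIS proteins, occurred upstream of 4 starts of *MEF2C* and *PBX3* and of 13.03% of all starts. A match is a description of the letters only.

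The cofactors *MEIS1* and *PBX3* were both higher in every CTCF-dRBR library. *MEIS1* (ENSG00000143995.15, chr2:66660584-66801001 of GRCh37, + strand, 13 exons in the canonical transcript) had 204, 214 and 219 CPM in CTCF-WT, against 267, 237 and 230.0 CPM in CTCF-dRBR (here and below always in the order of replicates 1, 2 and 3). The groups did not overlap, though the lowest CTCF-dRBR library lay close to the highest CTCF-WT library. The log2 fold change was 0.20 (SE 0.09, 95% interval −0.03 to 0.43, adjusted p = 0.22). *PBX3* (ENSG00000167081.12, chr9:128509624-128729656, + strand, 9 exons) had 71.0, 75.5 and 76.0 CPM in CTCF-WT, against 104, 88.7 and 83.8 CPM in CTCF-dRBR. Its groups were further apart, with a log2 fold change of 0.30 (SE 0.11, 95% interval 0.03 to 0.56, adjusted p = 0.18). In both genes CTCF-dRBR replicate 1 was the highest library. Without it the log2 fold change was 0.13 for *MEIS1* and 0.21 for *PBX3*.

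The RUNX factors overlapped between the groups. *RUNX1* (ENSG00000159216.14, chr21:36160098-37376965, − strand, 9 exons), a core regulator of blood stem cells, had 149.8, 137 and 128 CPM in CTCF-WT, against 139, 147 and 139 CPM in CTCF-dRBR. The second set lies wholly within the range of the first. The log2 fold change of 0.04 (SE 0.10, adjusted p = 0.78) had a 95% interval from −0.19 to 0.27. A difference within that range, in either direction, is thus not excluded by these libraries. *RUNX2* (ENSG00000124813.16, chr6:45295894-45632086, + strand, 9 exons), known best for bone formation, had 46.6, 43.4 and 38.0 CPM in CTCF-WT, against 40.5, 44.8 and 47.1 CPM in CTCF-dRBR. Here too the groups overlapped, with a log2 fold change of 0.06 (SE 0.12, 95% interval −0.23 to 0.35, adjusted p = 0.73). The sign of either value was not fixed, since both were below 0 without CTCF-WT replicate 3, at −0.01 for *RUNX1* and −0.02 for *RUNX2*. *SUPT3H* overlaps *RUNX2* on the other strand, with 7.30 to 29.9 TPM against at least 12.45 TPM for *RUNX2*, and while the tables are marked as stranded, the setting used for the counting is not given in the sources used here.

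*LMO2*, a bridging protein of blood transcription complexes, had 1 library that went against the other 2 of its group. *LMO2* (ENSG00000135363.7, chr11:33880122-33913623, − strand, 6 exons) had 50.3, 48.4 and 46.7 CPM in CTCF-WT, a narrow range. CTCF-dRBR replicates 2 and 3 had 64.9 and 66.6 CPM, above all of these, and CTCF-dRBR replicate 1 had 43.6 CPM, below all of them. Over all 6 libraries the log2 fold change was 0.27 (SE 0.17, adjusted p = 0.32). Without CTCF-dRBR replicate 1 it was 0.44 (adjusted p = 0.046), and *LMO2* was then the only target called. Of the 13731 genes tested 3.90% were called (209 higher and 326 lower). Without CTCF-dRBR replicate 2 the log2 fold change of *LMO2* was 0.18 (adjusted p = 0.57) and without replicate 3 it was 0.16 (adjusted p = 0.51). *MEF2C* (ENSG00000081189.9, chr5:88012934-88200074, − strand, 11 exons), a MADS-box factor of lymphoid progenitors, showed the reverse. It had 1018, 1125 and 1185 CPM in CTCF-WT, against 1616, 1204 and 1127 CPM in CTCF-dRBR. CTCF-dRBR replicate 1 stood far above CTCF-WT, replicate 2 just above its highest library and replicate 3 within its range, and the log2 fold change of 0.23 (SE 0.16, adjusted p = 0.33) was 0.07 without it. *MEF2C-AS1* on the other strand was at 4.79 to 10.6 TPM, against at least 163 TPM for *MEF2C*.

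The transcripts of the surface proteins were abundant and separated between the groups. *FLT3* (ENSG00000122025.10, chr13:28577411-28674729, − strand, 24 exons), a receptor tyrosine kinase of lymphoid and myeloid progenitors, had 1983, 2151 and 2488 CPM in CTCF-WT, against 2912, 2725 and 2529 CPM in CTCF-dRBR. The groups did not overlap, but replicate 3 of CTCF-WT came close to replicate 3 of CTCF-dRBR. The log2 fold change was 0.31 (SE 0.12, 95% interval 0.03 to 0.59, adjusted p = 0.18). *PROM1* (ENSG00000007062.7, chr4:15964699-16086001, − strand, 28 exons), which encodes a membrane glycoprotein of stem and progenitor cells, had 779.7, 799 and 872 CPM in CTCF-WT, against 1066, 1046 and 968 CPM in CTCF-dRBR. The difference of 0.33 on the log2 scale (SE 0.09, 95% interval 0.11 to 0.55, adjusted p = 0.14) ranked first among the 10 targets by its p. It depended little on 1 library, with 0.30 when CTCF-dRBR replicate 1 was left out.

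*JMJD1C* and *CDK6* were higher in every CTCF-dRBR library than in any CTCF-WT library. *JMJD1C* (ENSG00000171988.13, chr10:64926981-65281610, − strand, 26 exons), a coactivator in KMT2A-rearranged leukemia, had 589, 645 and 713 CPM in CTCF-WT, against 1201, 874 and 767 CPM in CTCF-dRBR. At 0.52 its log2 fold change was the largest of the 10 targets and also the least precise (SE 0.18, 95% interval 0.09 to 0.96, adjusted p = 0.17), and it was 0.33 without CTCF-dRBR replicate 1. *CDK6* (ENSG00000105810.5, chr7:92234235-92465887, − strand, 8 exons) had 1366, 1429 and 1423 CPM in CTCF-WT, against 1876, 1754 and 1588 CPM in CTCF-dRBR. The difference on the log2 scale was 0.30 (SE 0.09, 95% interval 0.08 to 0.53, adjusted p = 0.15). *AC002454.1* overlaps *CDK6* on the other strand at 172 to 381 TPM, against 66.1 to 173 TPM for *CDK6* itself, so the counts of this pair are uncertain where strand was not used.

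Seen by library, CTCF-dRBR replicate 1 was the highest of the 6 libraries for 7 targets and the lowest for 1, *LMO2*. CTCF-WT replicate 1 was the lowest for 7. The median of the 10 targets relative to the CTCF-WT mean was 0.39 on the log2 scale in CTCF-dRBR replicate 1, 0.28 in replicate 2 and 0.18 in replicate 3, and between −0.06 and 0.04 in the CTCF-WT libraries. In CTCF-dRBR replicates 2 and 3 all 10 targets lay above the CTCF-WT mean, and in replicate 1 there were 8.

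**Figure D1:**
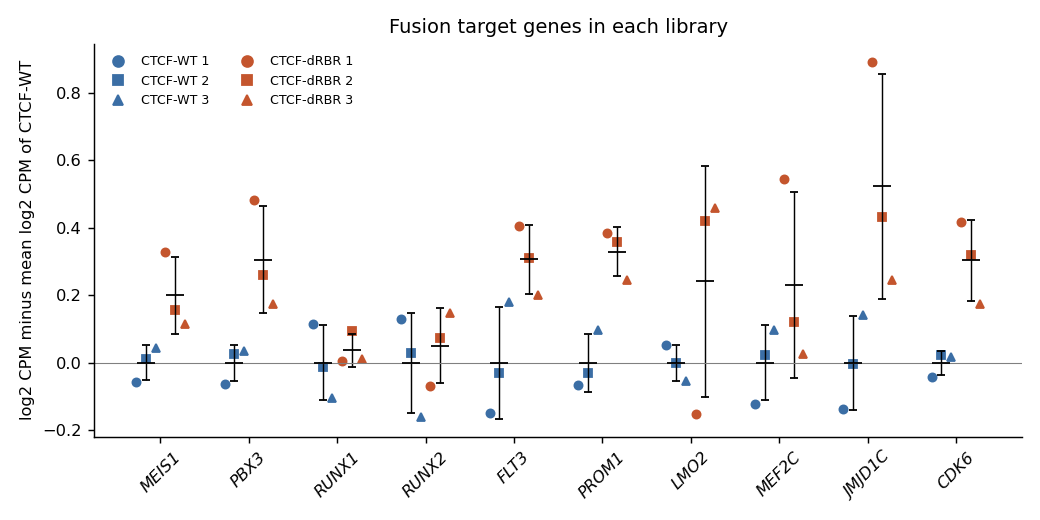
Each point is 1 library, given as its log2 CPM minus the mean log2 CPM of the 3 CTCF-WT libraries for that gene (blue CTCF-WT, orange CTCF-dRBR; circle, square and triangle are replicates 1, 2 and 3), with the mean and SD of each group in black. The groups separate for MEIS1, PBX3, FLT3, PROM1, JMJD1C and CDK6, and CTCF-dRBR replicate 1 is the highest point for 7 genes and the lowest for LMO2.

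Levels of different genes can be compared only per length. The deposited TPM are divided by effective length but scaled over all genes, and protein-coding genes held between 30.2% and 63.2% of them in a library. They were therefore rescaled so that the protein-coding genes of each library sum to the same total (protein-coding TPM). On this scale all 10 targets were among the more highly expressed genes, from rank 149 (*FLT3*) to rank 4005 (*RUNX2*) of 11700 protein-coding genes tested. In CTCF-WT the means were 995 ± 176 (SD, n = 3) for *FLT3*, 591 ± 54.7 for *MEF2C*, 452 ± 61.6 for *PROM1*, 227 ± 9.93 for *CDK6* and 153 ± 19.5 for *JMJD1C*. They went on with 132 ± 9.72 for *MEIS1*, 75.3 ± 6.95 for *PBX3*, 61.6 ± 0.873 for *RUNX1*, 50.2 ± 0.552 for *LMO2* and 39.7 ± 5.78 for *RUNX2*. The libraries of neighbours in this order did not overlap, except for *JMJD1C* and *MEIS1*.

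The order of the means was the same in CTCF-dRBR, but with less distance between some of them. *FLT3* had 1324 ± 69.0 protein-coding TPM there, *MEF2C* 711 ± 126 and *PROM1* 616 ± 27.5, and the last pair overlapped. *RUNX1* (66.5 ± 9.68) overlapped *LMO2* (65.4 ± 18.3), which overlapped *RUNX2* (37.02 ± 7.32), and *JMJD1C* (225 ± 19.9) overlapped *MEIS1* (179 ± 32.0). *FLT3* exceeded *RUNX2* between 20.5-fold and 42.8-fold within a library. The 10 targets together took 2476 to 3130 protein-coding TPM in CTCF-WT and 3400 to 3816 in CTCF-dRBR, most of it from *FLT3*, *MEF2C* and *PROM1*. On this scale 6 targets were separated upward and 0 downward, where 3373 and 1488 of all 14044 genes were.

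**Figure D2:**
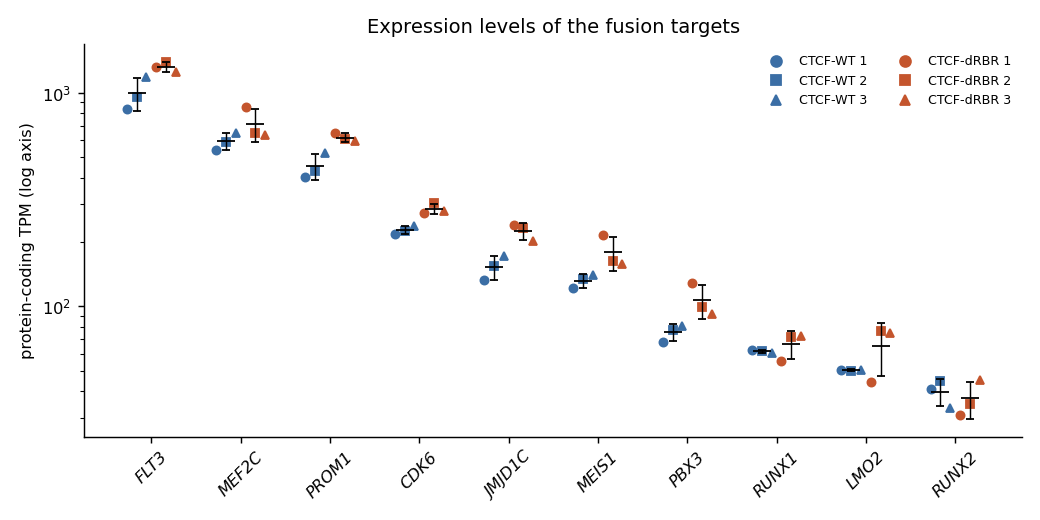
Protein-coding TPM of the 10 targets on a log axis, ordered by their CTCF-WT mean, with 1 point per library (blue CTCF-WT, orange CTCF-dRBR; circle, square and triangle are replicates 1, 2 and 3) and the mean and SD of each group in black. FLT3 is the highest and RUNX2 the lowest gene in all 6 libraries.

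In the deposited TPM the fold difference was larger than in CPM for every target. The ratio of the CTCF-dRBR mean to the CTCF-WT mean lay between 1.27 (*RUNX2*) and 1.98 (*JMJD1C*), and the spread within the groups, relative to the mean, was also larger for most targets, though not for *RUNX2* and *LMO2* in CTCF-dRBR. *MEIS1* for example had 36.7, 47.9 and 73.7 TPM in CTCF-WT and 136, 88.9 and 68.4 TPM in CTCF-dRBR, so that its groups overlapped. With 1 library left out the log2 ratio of the TPM means stayed above 0 for every target but moved widely, from 0.40 to 1.06 for *MEF2C*, 0.58 to 1.21 for *MEIS1*, 0.57 to 1.26 for *FLT3* and 0.21 to 0.45 for *RUNX2*. The highest value came without CTCF-WT replicate 3 in all 10 targets, and the lowest without CTCF-dRBR replicate 1 for *MEF2C* and *MEIS1* and without CTCF-WT replicate 1 for *FLT3* and *RUNX2*. The exact two-sided permutation test gave p = 0.2 for 8 targets and p = 0.1, the smallest that 3 against 3 libraries can give, for *RUNX2* and *LMO2*. These are the targets whose TPM did not overlap, 2 of 10, where the same held upward for 13.1% of all genes. On the log2(TPM + 1) scale the median of all 14044 genes stood at 0.40, so the targets' median of 0.83 is read relative to that. On the protein-coding scale *RUNX2* turned, with 41.2, 44.7 and 33.4 in CTCF-WT and 30.9, 35.0 and 45.2 in CTCF-dRBR, a ratio of 0.931.

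The expected count divided by the TPM of a gene is proportional to the effective length of the transcripts that RSEM assigned to it, and thus changes with isoform use. It was set relative to the library's median over protein-coding genes. *MEF2C*, which has 57 annotated transcripts, was the only target whose groups did not overlap (9.90% of 13920 genes were separated upward), with 1.36, 1.42 and 1.47 in CTCF-WT and 1.53, 1.61 and 1.47 in CTCF-dRBR (ratio 1.09, exact permutation p = 0.1). The lowest CTCF-dRBR library was at 1.475 and the highest CTCF-WT library at 1.466, so they were barely apart. *RUNX2* had the largest ratio, 1.24 (exact permutation p = 0.2), with 0.810, 0.722 and 0.910 in CTCF-WT and 1.06, 1.10 and 0.861 in CTCF-dRBR. For the other 8 targets the ratio lay between 0.951 and 1.09 and the exact permutation p between 0.2 and 1.

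**Figure D3:**
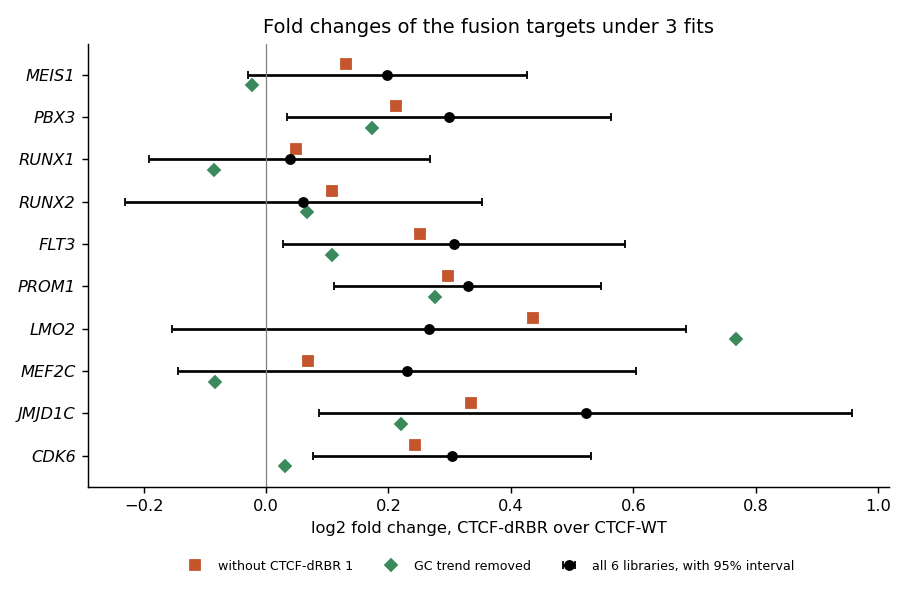
Log2 fold change of each target (CTCF-dRBR over CTCF-WT) by limma-voom with all 6 libraries (black circles with 95% interval), without CTCF-dRBR replicate 1 (orange squares) and with the GC trend removed (green diamonds). LMO2 moves up to 0.77 with the GC trend removed, and MEIS1, RUNX1 and MEF2C move below 0.

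The GC content of a gene's exons went with its fold change across the whole table. With the genes split by GC content into 4 groups of about equal size, the median log2 fold change was 0.29 in the group lowest in GC (up to 41.5%), and 0.14, −0.16 and −0.59 in the next groups (up to 46.9%, 54.9% and 73.8%). The GC content of the targets was 38.7% for *MEF2C*, 39.2% for *JMJD1C*, 40.4% for *CDK6*, 42.3% for *MEIS1*, 43.1% for *FLT3*, 45.1% for *PBX3*, 45.2% for *RUNX1*, 46.7% for *PROM1*, 48.0% for *RUNX2* and 57.3% for *LMO2*. All targets other than *RUNX2* and *LMO2* thus lay below the median gene (46.9%). Of the 10 targets 8 had a fold change above the median of the GC group they fall in, a median that by definition splits each group evenly. These groups are wide. With the fitted GC trend removed, as described further on, 7 targets had a log2 fold change above 0.

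**Figure D4:**
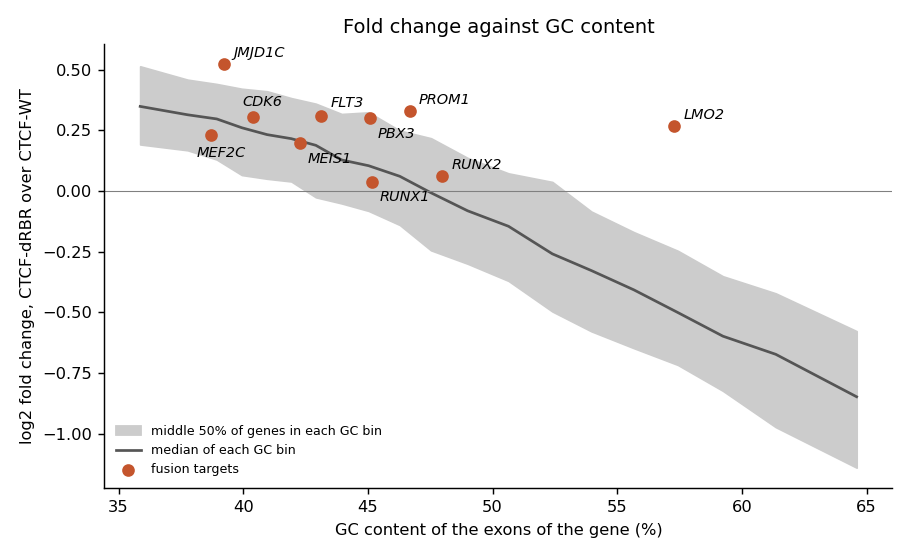
Log2 fold change (CTCF-dRBR over CTCF-WT) against the GC content of the exons in percent. The line is the median and the grey band the middle 50% of the genes in each of 20 GC bins, and the orange points are the 10 targets. The median declines with GC content, and LMO2 stands well above the band at 57.3%.

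This trend was present in single libraries. Spearman's rho across genes, between GC content and the deviation of a library from the mean of all 6, was 0.71, 0.67 and 0.34 in CTCF-WT replicates 1, 2 and 3 and −0.78, −0.42 and 0.50 in CTCF-dRBR replicates 1, 2 and 3. Genes are not independent replicates, and these values are descriptions. At the GC content of *LMO2* the fitted trend was −0.88 on the log2 scale in CTCF-dRBR replicate 1 and 0.40 in CTCF-WT replicate 1, and at that of *MEF2C* it was 0.44 and −0.24. With the fitted trend subtracted from each library, 2 targets were called at an adjusted p under 0.05, both higher. Of 13654 genes 9.21% were called (542 higher and 716 lower). *LMO2* then had a log2 fold change of 0.77 (adjusted p = 0.027) with values of 5.26, 5.27 and 5.46 log2 CPM in CTCF-WT, against 6.32, 6.16 and 5.86 in CTCF-dRBR, which no longer overlapped. *PROM1* had 0.28 (adjusted p = 0.047), nearly its size before. With CTCF-dRBR replicate 1 left out as well, an alternative chosen after seeing the data, the targets called were again *LMO2* (0.67, adjusted p = 0.012) and *PROM1* (0.26, adjusted p = 0.031). Of 13360 genes 23.5% were then called (1368 higher and 1771 lower).

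The other targets came closer together when the trend was subtracted. *JMJD1C* went to 0.22 (adjusted p = 0.085), *PBX3* to 0.17 (0.14), *FLT3* to 0.11 (0.35), *RUNX2* to 0.07 (0.67) and *CDK6* to 0.03 (0.81). *MEIS1* (−0.02), *MEF2C* (−0.08) and *RUNX1* (−0.09) turned below 0. Higher values in all CTCF-dRBR libraries remained for *PBX3*, *PROM1* and *JMJD1C* and were now seen for *LMO2*, and *MEF2C* lay lower in all of them, where 17.7% of all genes were separated upward and 21.7% downward. The median of the 10 targets was 0.09, against −0.01 over all genes. The part that GC content plays in the differences between the groups was not tested.

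The paralogs of the targets lay on both sides of 0. Of 23 paralogs 13 passed the filter, and 0 were called at an adjusted p under 0.05 by limma-voom. At an unadjusted p under 0.05, 2 were higher and 2 lower, where 12.6% and 12.8% of all genes were. In CPM 2 were separated upward and 2 downward, where 20.0% and 17.5% of all genes were. Their median log2 fold change was −0.26, and 0.02 with the GC trend removed. With that trend removed 1 paralog was called at an adjusted p under 0.05, as lower, where 9.21% of all genes were called. *CDK4*, which pairs with the same D-type cyclins as *CDK6*, had 167, 157 and 133 CPM in CTCF-WT, against 38.6, 94.5 and 115 CPM in CTCF-dRBR (log2 fold change −0.97, SE 0.38, adjusted p = 0.19). At 258 protein-coding TPM in CTCF-WT it was close to the 227 of *CDK6*, and in CTCF-dRBR the means were 170.1 and 285. *CDK4* has exons of 52.6% GC, and its log2 fold change without CTCF-dRBR replicate 1 was −0.54. *PBX2* (39.0, 32.8 and 25.4 CPM against 18.5, 20.5 and 24.3 CPM) had −0.59 (adjusted p = 0.16), opposite in sign to *PBX3*.

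Upward separation was seen for *LMO4* (78.1, 86.1 and 85.6 CPM in CTCF-WT, against 129, 112 and 105 CPM in CTCF-dRBR, log2 fold change 0.46, adjusted p = 0.12) and *MEF2A* (132, 127 and 133 CPM, and 181, 157 and 146 CPM, 0.30, adjusted p = 0.17). In protein-coding TPM *LMO4* exceeded *LMO2* in CTCF-WT, 73.7 against 50.2, while *MEF2A* at 62.5 was far below *MEF2C*. The most abundant paralogs of the remaining targets overlapped between the groups. These were *PKNOX1* (−0.26) for *MEIS1*, *PDGFRB* (−0.29) for *FLT3* and *KDM3B* (−0.04) for *JMJD1C*. The sign of the last pair rested on CTCF-dRBR replicate 1, without which *PDGFRB* had 0.11 and *KDM3B* 0.05, and it also turned with the GC trend removed (0.22 and 0.01). *RUNX3* and *PROM2* were not tested, with at most 0.279 protein-coding TPM in CTCF-WT.

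Partners through which the targets act gave 0 calls by limma-voom among 22 tested of 26, with 2 higher and 4 lower at an unadjusted p under 0.05. In 4 the groups were separated upward and in 2 downward, with a median log2 fold change of −0.31, and −0.03 with the GC trend removed. Among all genes 20.0% were separated upward and 17.5% downward, and 12.6% were higher and 12.8% lower at that unadjusted p. With the GC trend removed 3 partners were called at an adjusted p under 0.05, 2 higher and 1 lower, where 9.21% of all genes were called. *HDAC9*, a corepressor of MEF2 proteins, had 29.7, 30.7 and 34.5 CPM in CTCF-WT, against 53.9, 46.1 and 39.9 CPM in CTCF-dRBR (log2 fold change 0.53, adjusted p = 0.14, and 0.27 with the GC trend removed). *TCF12*, an E protein of the LMO2 complex, had 0.32 (adjusted p = 0.15), and 0.09 with the GC trend removed. Of the inhibitors that act on CDK6, *CDKN1B* had 0.16 (adjusted p = 0.24) and *CDKN2C* −0.38 (adjusted p = 0.16). Both turned sign with the GC trend removed, to −0.09 and 0.15.

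Other known KMT2A fusion targets, 16 tested of 18, gave 0 calls by limma-voom (3 higher and 1 lower at an unadjusted p under 0.05), 7 separated upward and 1 downward, with a median log2 fold change of 0.16, and 0.03 with the GC trend removed. The share of all genes separated was 20.0% upward and 17.5% downward, and 12.6% were higher and 12.8% lower at that unadjusted p. With the GC trend removed 1 of them, *MYB*, was called at an adjusted p under 0.05, as higher, where 9.21% of all genes were called. *MYB*, a driver of progenitor growth, had 139, 133 and 163 CPM in CTCF-WT, against 259, 236 and 207 CPM in CTCF-dRBR. At 0.69 (SE 0.13, adjusted p = 0.10) its log2 fold change exceeded that of any of the 10 targets. With the GC trend removed it was 0.50 (adjusted p = 0.021), below the 0.77 of *LMO2*. *IKZF2* had 0.62 (adjusted p = 0.11) and *BCL2* 0.17 (adjusted p = 0.22), and with the GC trend removed 0.28 (adjusted p = 0.16) and −0.03 (adjusted p = 0.86). *HOXA7*, the only one separated downward, had 30.1, 26.9 and 23.2 CPM in CTCF-WT, against 13.4, 14.9 and 19.7 CPM in CTCF-dRBR (−0.73, adjusted p = 0.13). Its exons have 55.4% GC, and with the GC trend removed it had −0.35 (adjusted p = 0.12).

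The genes of the fusion and its elongation complex, 23 of 23 tested, gave 0 calls by limma-voom. At an unadjusted p under 0.05, 3 were higher and 0 lower, where 12.6% and 12.8% of all genes were. In CPM 5 were separated upward and 1 downward, where 20.0% and 17.5% of all genes were. The median log2 fold change was 0.09, and 0.03 with the GC trend removed. With that trend removed 2 were called at an adjusted p under 0.05, 1 higher and 1 lower, where 9.21% of all genes were called. *MLLT3* was low, with 2.98, 3.02 and 3.28 CPM in CTCF-WT, against 7.96, 5.02 and 4.68 CPM in CTCF-dRBR (log2 fold change 0.86, adjusted p = 0.14, and 0.56 with an adjusted p of 0.039 with the GC trend removed). The elongation factor *ELL2* had 0.58 (adjusted p = 0.15) and its partner *EAF2* 0.52 (adjusted p = 0.15), whereas *EAF1* had −0.10 (adjusted p = 0.43). Fusion and unrearranged KMT2A and AFF1 transcripts are counted under the same gene names and were not told apart.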

How the data were processed

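The authors trimmed the reads (Trim Galore 0.6.3), aligned them to GRCh37/hg19 with STAR 2.7.9a and counted Gencode genes with RSEM 1.3.1. They deposited expected counts (not normalized) and TPM (scaled over all genes). The methods describe paired-end and the labels single-end reads. Only genes that reached 1 CPM in some library were kept (14044 of 57820). Expected counts were compared by limma-voom (limma 3.58.1, edgeR 4.0.16, R 4.3.3) with TMM factors, two-sided, with Benjamini-Hochberg adjustment over all genes tested; edgeR's quasi-likelihood test and DESeq2 1.42.0 used rounded counts. Coordinates, exons and GC content (97.2% of genes tested) were read from Gencode models lifted over to GRCh37. The GC trend was the loess fit (span 0.5, degree 2) of each library's deviation in log2 CPM (prior count 1). The fits were tested on simulated data with changes larger than those of the targets. That test does not show how the fits handle changes of the targets' size. Matplotlib 3.10.9 drew the figures.

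The 10 targets and all gene lists were chosen with earlier results of these data known. Named from each list were at most 3 genes per direction with the smallest p among those whose groups did not overlap and whose TPM averaged 1 or more, plus the most abundant paralog of a target, and *CTCF*. Alternatives were other tests, normalizations, filters, scales and pseudocounts, each library left out, and the replicate block.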

Additional observations from a re-analysis of the deposited data

How the results depend on the processing

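The median log2 fold change of the 10 targets stayed above 0 in all settings run. It was 0.28 and moved beyond the SD between replicates (0.086) to 0.83 on log2(TPM + 1), 0.85 on log2(TPM + 0.1) (the whole table shifted by 0.40 and 0.54 on these scales), 0.38 on both protein-coding TPM scales (pseudocounts 1 and 0.1), 0.088 with the GC trend removed (with or without the replicate block), and 0.12 with CTCF-dRBR replicate 1 also left out, an alternative chosen after seeing the data. Leaving out 1 library at a time gave 0.23 to 0.35. With no filter on low counts the median of the targets was 0.20, hardly above the 0.19 of all 38604 genes. Targets past an adjusted p of 0.05 numbered 0, and 0% of all genes passed. On log2(TPM + 1) and log2(TPM + 0.1) they also numbered 0, where 833 and 760 of 14044 genes passed (726 and 636 of these higher). DESeq2 called 1 target and 11.5% of all genes. By voomWithQualityWeights 7 were called (all except *RUNX1*, *RUNX2* and *MEF2C*), with 68.2% of all genes. With the GC trend removed 2 were called, with 9.21% of all genes. With CTCF-dRBR replicate 1 also left out it was again 2, with 23.5% of all genes. Leaving out 1 library gave 0 to 1, the 1 without CTCF-dRBR replicate 1, where 3.90% of all genes were called. The weights in voomWithQualityWeights were 1.26, 5.65 and 0.50 for CTCF-WT replicates 1, 2 and 3. For CTCF-dRBR replicates 1, 2 and 3 they were 0.097, 6.19 and 0.47. Targets separated upward numbered 6, where 20.0% of all genes were, and 2 on both deposited TPM scales, where 13.1% were. Targets separated downward numbered 0, where 17.5% of all genes were, and 1 with the GC trend removed, where 21.7% were. With CTCF-dRBR replicate 1 also left out it was again 1, where 4047 of 13360 genes were separated downward. Other changes in these counts stayed within 1.5 times. The cause of these changes was not tested.

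Signs turned for *MEIS1* (−0.022 with the GC trend removed and −0.023 with the replicate block added), *RUNX1* (−0.038 with no filter, −0.068 with the length trend removed, −0.085 with the GC trend removed, with or without the replicate block, and −0.021 with CTCF-dRBR replicate 1 also left out), *RUNX2* (−0.021 with no filter, −0.11 on both protein-coding TPM scales and −0.10 for the log2 ratio of TPM after rescaling) and *MEF2C* (−0.083 with the GC trend removed, with or without the replicate block, and −0.089 with CTCF-dRBR replicate 1 also left out). With 1 library left out, *RUNX1* gave −0.014 to 0.086 and *RUNX2* −0.020 to 0.12, the lowest in both without CTCF-WT replicate 3. With no filter the median of all 38604 genes was 0.19. The log2 ratio of implied effective length gave, with 1 library left out, −0.13 to 0.018 for *MEIS1*, −0.074 to 0.039 for *PBX3*, −0.0085 to 0.17 for *RUNX1*, −0.0019 to 0.050 for *FLT3*, −0.023 to 0.050 for *PROM1* and −0.011 to 0.19 for *JMJD1C*. The sign turned without CTCF-dRBR replicate 2 for *PROM1* and without CTCF-dRBR replicate 1 for the other 5.

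The deviations of same-numbered libraries from their group means had correlations of −0.34, 0.099 and −0.47. With 3 libraries per group these values cannot settle whether the numbers pair libraries, and no label says so. With the replicate block 0 targets were called, their median was 0.28, and 1423 of all genes had an unadjusted p under 0.05, against 3569 without the block. With the block and the GC trend removed 0 targets were called (adjusted p = 0.15 for *LMO2* and 0.19 for *PROM1*), and 2948 of all genes had an unadjusted p under 0.05. The groups held 3 libraries each, and the targets had at least 1212 counts in a library. What limited the precision was not tested.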

Other observations

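The nearest protein-coding gene tested on each side of each target was examined after the values of the targets were known. Of these 20 neighbours, at distances of 12190 to 2390605 bp, 16 had a log2 fold change above 0, 4 were separated upward and 1 downward in CPM, 0 passed an adjusted p of 0.05 by limma-voom, and 3 had an unadjusted p under 0.05, all higher. Among all genes 20.0% were separated upward, 17.5% downward and 12.6% higher at an unadjusted p under 0.05. Their median log2 fold change was 0.23, and 0.04 with the GC trend removed. The neighbours include *CD38*, 109844 bp from *PROM1*, an ectoenzyme of the lymphocyte surface. It had 15.8, 15.5 and 15.8 CPM in CTCF-WT, against 31.3, 32.2 and 28.5 CPM in CTCF-dRBR. The difference on the log2 scale was 0.96 (SE 0.11, adjusted p = 0.096), and it was 0.94 (adjusted p = 0.028) without CTCF-dRBR replicate 1 and 0.76 (adjusted p = 0.020) with the GC trend removed. On the other side of *PROM1*, *TAPT1* had 0.30 (adjusted p = 0.20), and 0.04 with the GC trend removed.

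*SETD4*, the neighbour of *RUNX1*, was the only one separated downward, with 17.9, 19.6 and 16.8 CPM in CTCF-WT, against 15.1, 15.2 and 15.9 CPM in CTCF-dRBR (log2 fold change −0.23, adjusted p = 0.25). Beside *MEIS1*, *ETAA1* had 0.73 (adjusted p = 0.18), with 50.97, 53.0 and 65.5 CPM in CTCF-WT, against 142, 87.2 and 67.9 CPM in CTCF-dRBR. Without CTCF-dRBR replicate 1 this was 0.45. *FBXO3*, beside *LMO2*, had 0.26 (adjusted p = 0.21), and −0.03 with the GC trend removed.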
